A study of Mus musculus with 7 samples.

Results

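The genes described here are 9 transcription factors and cofactors that set keratinocyte fate in the epidermis: Trp63, Klf4, Klf5, Grhl1, Grhl3, Ovol1, Zfp750, Sox15 and Hopx. They were taken by name, and each was read from the probe set that names it alone with the highest mean over the arrays. Each of the 9 had exactly 1 such probe set, and they are 9 of 19937 genes measured. RNA of mouse tissue was profiled on 7 Affymetrix Mouse Gene 1.0 ST arrays, from Iqgap1 knockout mice at day 0 (n = 2) and day 6 (n = 2) and from wild-type mice at day 0 (n = 1) and day 6 (n = 2). All mice were of mixed C57BL/6 and 129 background, and all arrays, those of day 0 included, carry topical 4OHT as the agent. 4OHT, 4-hydroxytamoxifen, is a ligand that switches on tamoxifen-dependent proteins; the labels name no such protein, no age and no skin site, and do not say how the knockout was made. The comparisons asked which factors changed between the days, and whether Iqgap1, a scaffold protein of the Ras-ERK cascade, mattered for their level.

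Epidermis renews from a basal layer of dividing keratinocytes, which stop dividing, move up and build the cornified barrier. Trp63, a relative of p53, sustains the basal state and is needed for any stratified epithelium to form. Ovol1, Grhl3, Zfp750 and Klf4 act in the cells that leave the basal layer, and Klf5 is best known from the dividing compartment.

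Promoter sequences are shown for 4 of the factors with a window in the RefSeq table: Sox15, Grhl3 and Hopx, whose estimates over both genotypes were the largest among those with a window, and Klf4 as the Klf member with one. RefSeq windows of GRCm38.p6, from 250 bases before to 50 bases after a transcript start, were found for 5 of the 9 factors, in 7 windows (Klf4, Grhl3 and Sox15 with 1 each, Grhl1 and Hopx with 2 each). They are printed 5′ to 3′ on the gene's strand, and capitals mark every match to the Klf box CCNCNCCC on either strand, overlapping matches joined.
Sox15, chr11:69654787-69655086, plus strand: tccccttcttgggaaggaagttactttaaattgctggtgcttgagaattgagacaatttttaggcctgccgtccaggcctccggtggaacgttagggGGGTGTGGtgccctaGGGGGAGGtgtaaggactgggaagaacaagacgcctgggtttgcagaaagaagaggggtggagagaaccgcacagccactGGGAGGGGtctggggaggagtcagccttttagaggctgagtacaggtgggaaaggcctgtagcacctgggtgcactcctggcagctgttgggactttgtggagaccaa
Grhl3, chr4:135573583-135573882, minus strand: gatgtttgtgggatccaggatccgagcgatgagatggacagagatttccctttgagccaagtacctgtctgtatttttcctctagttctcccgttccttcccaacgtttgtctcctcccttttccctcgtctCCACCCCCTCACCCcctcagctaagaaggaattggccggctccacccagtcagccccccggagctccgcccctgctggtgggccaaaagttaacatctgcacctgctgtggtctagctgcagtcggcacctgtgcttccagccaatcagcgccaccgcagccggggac
Klf4, chr4:55532426-55532725, minus strand: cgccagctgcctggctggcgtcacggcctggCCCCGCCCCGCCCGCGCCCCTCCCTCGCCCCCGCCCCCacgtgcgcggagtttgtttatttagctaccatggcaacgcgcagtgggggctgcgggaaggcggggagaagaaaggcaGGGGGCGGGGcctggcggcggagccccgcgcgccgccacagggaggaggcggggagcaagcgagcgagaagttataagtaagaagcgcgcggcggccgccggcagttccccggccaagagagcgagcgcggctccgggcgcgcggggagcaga
Hopx, upstream start, chr5:77115074-77115373, minus strand: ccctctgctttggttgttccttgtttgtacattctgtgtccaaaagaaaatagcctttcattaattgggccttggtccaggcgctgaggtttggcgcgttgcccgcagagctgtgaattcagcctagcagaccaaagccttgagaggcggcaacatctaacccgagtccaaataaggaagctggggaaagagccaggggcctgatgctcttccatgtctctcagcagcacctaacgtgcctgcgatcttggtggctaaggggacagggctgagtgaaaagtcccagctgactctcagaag
The Klf box is a GC-rich pattern of the kind that Klf zinc fingers bind. It had 9 matches in the Klf4 window, 7 of them overlapping at positions -219 to -189 from the start. In the Sox15 window it had 3 matches, all on the opposite strand, at -153, -138 and -58. Grhl3 had 2 overlapping matches at -118 and -112, the first Grhl1 window had 2 and the Hopx windows had 0. The same box was present in 49.5% of all 32851 windows of this length. The Grhl core ACCGGT (2.33% of all windows), the AP-1 site TGANTCA (7.81%), the Sox core ACAATG (12.6%) and the TATA box TATAAA (13.6%) were each found in 0 of the 7 windows. Such matches describe the letters and are no evidence of binding.

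On the arrays, values are log2 units after RMA, so a difference of 1 is a doubling, and levels of different genes are not compared because probe sets differ in brightness. All values of the factors lay between 6.72 and 11.92, above the 3.50 to 4.25 at which Xist and 3 Y-linked genes stood on arrays without their signal. Iqgap1 stood at 9.02 and 8.99 in knockout and 9.94 in the wild-type array at day 0, and at 8.58 and 8.67 in knockout and 10.11 and 10.59 in wild type at day 6, so it was lower in every knockout array. Xist, the RNA of the inactive X, was high on wild-type replicate 1 of both days and low on the other 5 arrays. The Y-linked gene Eif2s3y read 3.72 on those 2 arrays and 8.74 to 9.61 on the other 5. By these genes the 2 arrays read as female and the other 5, every knockout array among them, as male. Sex and genotype are therefore partly mixed on both days. The single wild-type day 0 array also stood apart in hair follicle markers, whose mean over 15 genes was 10.80 there, 5.38 and 5.43 in knockout at day 0, and 5.31 to 6.44 at day 6. Krt71, a keratin of the inner root sheath, read 12.72 there and 5.40 and 5.24 in knockout at day 0. Among the day 0 arrays, hair markers, Xist signal and wild type therefore cannot be told apart. At day 6 wild-type replicate 1 had Xist signal with a hair marker mean of 6.44. The estimate of the day change in knockout rests on none of these. The labels do not tell whether replicates came from different mice, so the p-values cover the spread of these arrays, which may be technical.

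**Figure D1:**
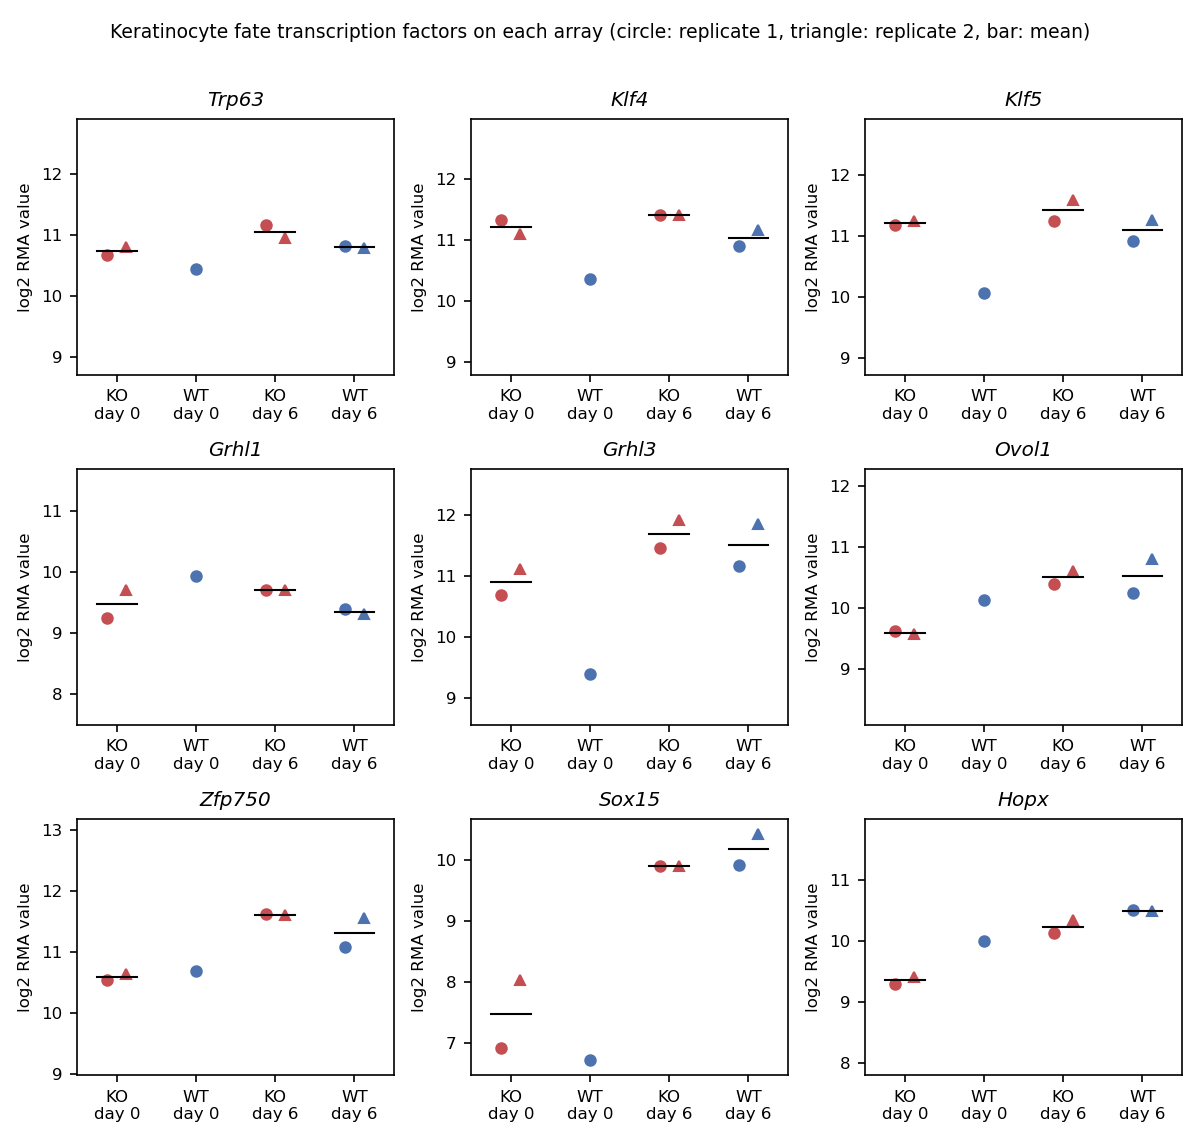
The log2 RMA value of each factor on each array, by genotype (KO, knockout; WT, wild type) and day, with a bar at the mean of groups with 2 arrays; every panel spans the same number of log2 units. Sox15 lies between 6.72 and 8.04 on the day 0 arrays and between 9.90 and 10.44 on the day 6 arrays, while Trp63 stays within 10.45 to 11.17 throughout.

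Sox15, an HMG-box factor of the Sox family, changed most of the 9. It read 6.92 and 8.04 in knockout and 6.72 in the wild-type array at day 0. At day 6 it read 9.90 and 9.91 in knockout and 9.92 and 10.44 in wild type. The lowest day 6 array lay well above the highest day 0 array, and the knockout arrays of day 0 were the replicates farthest apart. Over both genotypes Sox15 rose by 2.83 ± 0.34 (SE), which is 7.13-fold (limma adjusted p = 0.00513), with all 4 day 6 arrays above all 3 day 0 arrays. Of all genes tested, 11.5% were called in this comparison, 5.85% being called higher and 5.62% lower. Sox15 rose 5.36-fold in knockout (2.42 ± 0.37, SE; limma adjusted p = 0.00622) and 11.0-fold in wild type (3.45 ± 0.45, SE; limma adjusted p = 0.00701). It stayed called in all 3 comparisons under every alternative setting run.

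Zfp750, a zinc finger protein that acts downstream of Trp63 in terminal differentiation, read 10.55, 10.64 and 10.69 on the day 0 arrays, the last of them wild type. At day 6 the knockout arrays read 11.62 and 11.61 and the wild-type arrays 11.08 and 11.56. All day 6 arrays lay above all day 0 arrays, with wild-type replicate 1 the lowest of them. Over both genotypes it rose by 0.86 ± 0.16 (SE; limma adjusted p = 0.0212), and in knockout by 1.02 ± 0.20 (SE), a 2.03-fold rise (limma adjusted p = 0.0152). In wild type its difference was 0.63 ± 0.24 (SE; limma adjusted p = 0.199).

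Hopx encodes a small homeodomain protein that does not itself bind DNA. It read 9.29 and 9.41 in knockout and 9.99 in the wild-type array at day 0, and 10.12 and 10.34 in knockout and 10.50 and 10.48 in wild type at day 6. The days did not overlap, and wild type lay above knockout on each day. Hopx rose by 0.73 ± 0.14 (SE; limma adjusted p = 0.0211) over both genotypes and by 0.88 ± 0.16 (SE; limma adjusted p = 0.0124) in knockout. In wild type the difference was 0.50 ± 0.20 (SE; limma adjusted p = 0.214).

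Ovol1, a zinc finger repressor that helps committed cells leave the cell cycle, read 9.61 and 9.56 in knockout and 10.12 in the wild-type array at day 0. At day 6 it read 10.39 and 10.60 in knockout and 10.24 and 10.79 in wild type. The days did not overlap, but the wild-type day 0 array lay just under wild-type replicate 1 of day 6. Ovol1 rose in knockout by 0.91 ± 0.22 (SE), a 1.89-fold rise (limma adjusted p = 0.0311). That call was lost when all probe sets were tested (limma adjusted p = 0.0563) and with array medians centred (0.86; limma adjusted p = 0.0787). Over both genotypes its difference was 0.71 ± 0.19 (SE; limma adjusted p = 0.0579), and in wild type 0.40 ± 0.26 (SE; limma adjusted p = 0.493).

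Grhl3, a grainyhead factor needed for barrier formation and epidermal wound closure, read 10.69 and 11.11 in knockout and only 9.40 in the wild-type array at day 0. At day 6 it read 11.46 and 11.92 in knockout and 11.16 and 11.86 in wild type. Replicate 2 was the higher array in each of the 3 groups with 2 arrays. Grhl3 rose 4.34-fold in wild type (2.12 ± 0.36, SE; limma adjusted p = 0.0179) against that single low array. In knockout the difference was 0.79 ± 0.29 (SE; limma adjusted p = 0.129). Over both genotypes it was 1.32 ± 0.33 (SE; limma adjusted p = 0.0501), at the edge of the threshold.

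**Figure D2:**
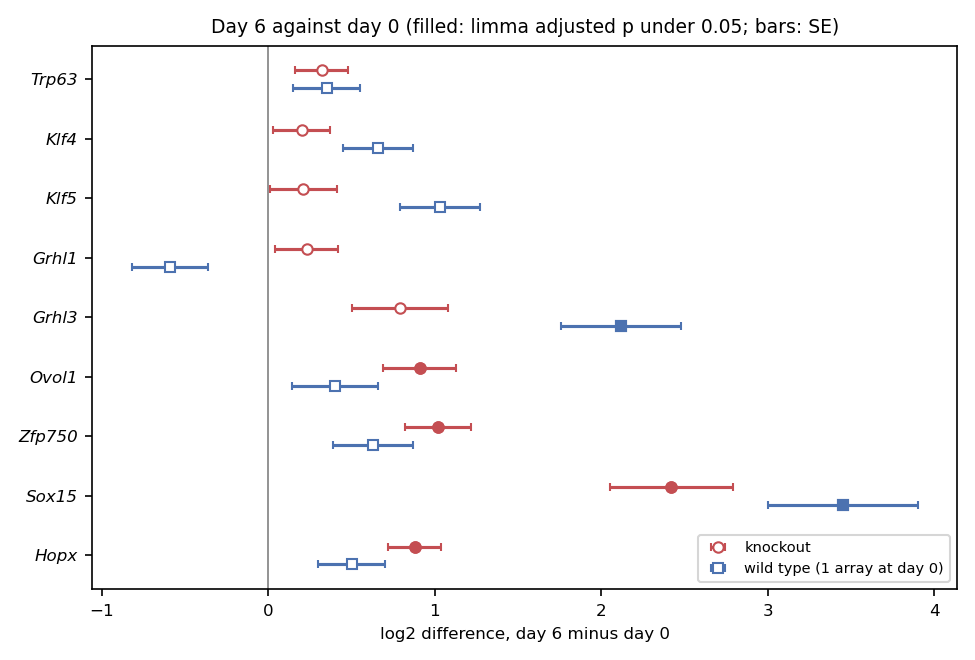
The fitted log2 difference of day 6 minus day 0 for each factor in knockout and in wild type, with its standard error as a bar; filled points passed the limma adjusted threshold of 0.05. Sox15 passed in both, at 2.42 and 3.45; Ovol1, Zfp750 and Hopx passed in knockout, and Grhl3 passed in wild type.

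Trp63, the basal factor, did not pass in any day comparison. It read 10.67 and 10.81 in knockout and 10.45 in the wild-type array at day 0, and 11.17 and 10.95 in knockout and 10.82 and 10.79 in wild type at day 6. The days overlapped slightly, and the difference over both genotypes was 0.33 ± 0.12 (SE; limma adjusted p = 0.134). The estimate was alike in knockout (0.32 ± 0.16) and wild type (0.35 ± 0.20, SE), with 95% intervals of -0.07 to 0.70 and -0.12 to 0.82.

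The Klf pair was low on the wild-type day 0 array. Klf4, a zinc finger factor needed for the skin barrier, read 11.32 and 11.09 in knockout and 10.36 in the wild-type array at day 0, and 11.41 and 11.40 in knockout and 10.89 and 11.16 in wild type at day 6. Klf5 read 11.17 and 11.24 in knockout and 10.06 in the wild-type array at day 0, and 11.25 and 11.58 in knockout and 10.92 and 11.26 in wild type at day 6. In knockout the day difference was 0.20 ± 0.17 for Klf4 and 0.21 ± 0.20 for Klf5 (SE; limma adjusted p = 0.511 and 0.549). In wild type it was 0.66 ± 0.21 and 1.03 ± 0.24 (SE; limma adjusted p = 0.133 and 0.0532).

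Grhl1, which acts on desmosomal cadherin genes, was the factor whose estimate over both genotypes was below 0, at -0.10 ± 0.21 (SE; limma adjusted p = 0.824). It read 9.24 and 9.69 in knockout and 9.93 in the wild-type array at day 0, and 9.69 and 9.70 in knockout and 9.38 and 9.30 in wild type at day 6. The wild-type day 0 array was the highest of all 7. Its difference was 0.23 ± 0.19 in knockout and -0.59 ± 0.23 in wild type (SE; limma adjusted p = 0.491 and 0.220). Without the wild-type day 0 array, wild type gives no day change. The fit over both genotypes then returned the knockout estimate of 0.23.

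Over both genotypes 3 of the 9 factors were called higher (Sox15, Zfp750 and Hopx) and 0 lower, where 5.85% of all genes were called higher and 11.5% in either direction. Their median difference was 0.71 against 0.06 over all genes. In knockout 4 of 9 rose (those and Ovol1), where 7.24% of all genes were called higher and 16.3% in either direction. In knockout the hair marker mean was 5.38 and 5.43 at day 0 and 5.43 and 5.59 at day 6. In wild type 2 of 9 factors rose (Sox15 and Grhl3), where 3.51% of all genes were called higher and 7.11% in either direction. There 13 of 15 hair follicle markers fell as well, where 3.61% of all genes fell, and their part in the wild-type values was not tested. For 5 of the 9, all day 6 arrays lay above all day 0 arrays, as they did for 11.9% of all genes. Leaving out either knockout array of day 0 or of day 6 left only Sox15 called over both genotypes; Zfp750 then had limma adjusted p = 0.0734 to 0.0915 and Hopx 0.0638 to 0.0938, with their size near unchanged (0.80 to 0.85 and 0.64 to 0.75). In knockout, dropping any of its 4 arrays ended the calls of Ovol1 and Zfp750, and dropping any but replicate 1 of day 6 that of Hopx, which left 1 or 2 factors called. Without the wild-type day 0 array, the fit over both genotypes takes its day difference from knockout alone. It then called the same 4 factors as knockout, Ovol1 among them. Without both arrays with Xist signal its day difference again came from knockout alone.

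The call of each factor in 1 genotype does not show that the genotypes differed. How far the day change differed by genotype was tested directly, and 0 of the 9 factors passed, where 3.10% of all genes did; 3 factors had an unadjusted limma p under 0.05, as did 17.3% of all genes. They were Grhl3 (-1.33 ± 0.46, knockout minus wild type), Klf5 (-0.82 ± 0.31) and Grhl1 (0.82 ± 0.30, SE), with limma adjusted p = 0.205, 0.239 and 0.228. Each of these 3 estimates uses the single wild-type day 0 array. For Sox15 the difference was -1.03, with a 95% interval of -2.41 to 0.34.

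At day 6, knockout and wild type were measured on 2 arrays each, and 0 of the 9 factors passed between them. No gene of the 19937 passed this comparison with limma (0 called), and 5.93% had an unadjusted limma p under 0.05, among them 0 of the factors. Iqgap1 itself had the smallest p of all genes, at -1.73 (95% interval -2.20 to -1.26). It did not pass either (limma adjusted p = 0.5035). Klf4 was 0.38 higher in knockout (95% interval -0.03 to 0.80), Grhl1 0.35 (-0.10 to 0.80), Klf5 0.32 (-0.14 to 0.79), Zfp750 0.29 (-0.17 to 0.76) and Trp63 0.25 (-0.13 to 0.64). Sox15 (-0.28, interval -1.15 to 0.60), Hopx (-0.26, interval -0.64 to 0.12) and Ovol1 (-0.02, interval -0.53 to 0.50) had estimates below 0. Grhl3 was at 0.18 (interval -0.52 to 0.87), and at -0.17 against wild-type replicate 2 alone. Both knockout arrays lay above both wild-type arrays for 4 factors (Trp63, Klf4, Grhl1 and Zfp750), and below them for Hopx and Sox15 (the latter by 9.91 against 9.92); among all genes 15.9% lay above and 15.7% below. The intervals leave room for differences of either sign, down to -1.15 for Sox15 and up to 0.87 for Grhl3, so the data do not show the genotypes to be alike.

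At day 0, where wild type has 1 array, 3 of the 9 factors were called higher in knockout and 0 lower. They were Grhl3 (1.51 ± 0.36), Klf5 (1.14 ± 0.24) and Klf4 (0.84 ± 0.21, SE), with limma adjusted p = 0.0371, 0.0256 and 0.0448. Of all genes 14.4% were called in this comparison and 8.53% were called higher, so the wild-type array differed widely. Hopx (-0.64 ± 0.20), Ovol1 (-0.54 ± 0.26) and Grhl1 (-0.47 ± 0.23, SE) had estimates below 0 and did not pass. The hair follicle markers were called lower in knockout for 15 of 15 genes (median difference -6.48; 5.86% of all genes were called lower), the basal keratinocyte genes higher for 9 of 15, and the epithelial genes in neither direction for 15. The part of the hair markers in the factor differences was not tested. With a term for the arrays with Xist signal, the differences were 0.81 for Grhl3, 0.80 for Klf5 and 0.57 for Klf4, and no call was kept. That term was estimated from the gap between the 2 wild-type arrays of day 6 alone. It moved the day 0 estimates by that gap, so it cannot tell Xist signal from genotype at day 0. Without either knockout array of day 0 no call was kept either. Without either knockout array of day 6, which only lends its spread, only Klf5 kept its call.

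**Figure D3:**
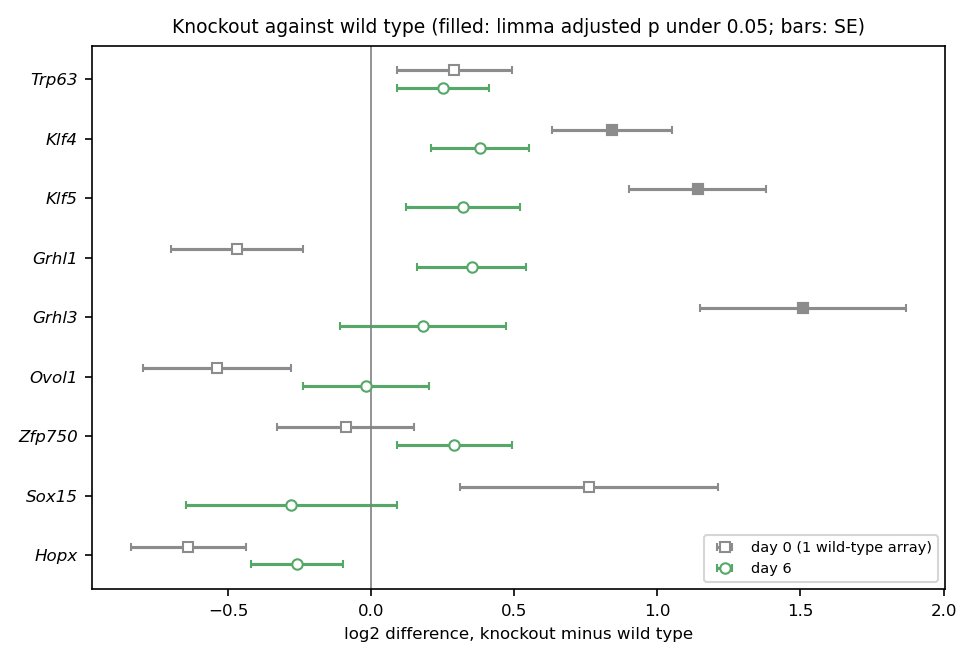
The fitted log2 difference of knockout minus wild type for each factor at day 0, where wild type has 1 array, and at day 6, with its standard error as a bar; filled points passed the limma adjusted threshold of 0.05. Grhl3, Klf5 and Klf4 pass at day 0, at 1.51, 1.14 and 0.84, and none of the 9 passes at day 6.

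Over both days together the genotype difference also called 0 of the 9 factors and 0 of all genes with limma, while 18.7% of all genes had an unadjusted limma p under 0.05. Klf4 had the smallest p of the factors there (0.57 ± 0.15, SE; limma adjusted p = 0.239), followed by Klf5 (0.65 ± 0.21) and Hopx (-0.41 ± 0.14, SE), both with limma adjusted p = 0.240.

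The order of the 4 group means fell into several patterns. Klf4 and Klf5 ran from knockout day 6 through knockout day 0 and wild-type day 6 to wild-type day 0. Arrays of knockout day 0 and wild-type day 6 overlapped for both, so these neighbours did not differ beyond their spread, and the wild-type day 0 array alone stood clear, at 10.36 and 10.06. Grhl3 and Trp63 placed both day 6 groups first, then knockout and then wild type of day 0; for Grhl3 the day 6 groups overlapped and the wild-type day 0 array stood well under both knockout arrays, at 9.40. Ovol1 and Hopx placed wild type above knockout on each day, with the day 6 groups of Ovol1 overlapping. Zfp750 had its day 0 arrays closest together, between 10.55 and 10.69, and its knockout day 6 arrays just above wild type. Sox15 had wild type highest at day 6 and lowest at day 0, though its lower wild-type array of day 6 (9.92) lay next to the knockout arrays (9.90 and 9.91). Grhl1 had wild type highest at day 0 and lowest at day 6, and its knockout groups met at 9.69.

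Markers of fat, muscle and fibroblasts were lower at day 6, and their values stand beside the rises above. The mean of 11 adipocyte markers was 10.06 to 10.81 at day 0 and 7.43 to 8.29 at day 6, that of 14 skeletal muscle markers 10.63 to 12.21 and 8.28 to 9.65, and that of 11 fibroblast markers 9.86 to 11.07 and 8.69 to 9.80. Over both genotypes 8 of 11, 11 of 14 and 5 of 11 of them fell and 0 rose, where 5.62% of all genes fell and 5.85% rose. The mean of 15 epithelial genes was 10.90 to 11.26 at day 0 and 11.23 to 11.59 at day 6, and 5 of 15 rose (Lad1, Krt14, Pkp1 and Esrp1 among them, by 0.62 to 0.82). Of the other lists, 4 of 9 sebaceous gland, 1 of 15 hair follicle and 1 of 7 melanocyte and Schwann cell markers fell and 0 rose, 1 of 10 endothelial and 2 of 13 macrophage and neutrophil markers rose and 0 fell, and 1 of 9 T cell and Langerhans cell markers rose and 4 fell; 1 of 15 and 1 of 10 are near the shares of all genes. The 2 genes of the macrophage and neutrophil list that rose were S100a8 and S100a9. The median difference of that list was 0.18 over both genotypes and -0.26 in knockout. In bulk tissue, fewer cells of a type and less RNA per cell cannot be told apart. Set against the epithelial mean of the same array, the knockout day difference was 2.04 for Sox15, 0.63 for Zfp750, 0.53 for Ovol1, 0.50 for Hopx and 0.40 for Grhl3, and -0.07 to -0.18 for Trp63, Grhl1, Klf4 and Klf5. In wild type it was 3.0 for Sox15, 1.66 for Grhl3 and 0.57 for Klf5, but -1.04 for Grhl1. It was 0.20 for Klf4, 0.18 for Zfp750, 0.05 for Hopx, -0.06 for Ovol1 and -0.11 for Trp63. These relative values are descriptions without a test. The part of the tissue's make-up in the rises was not tested.

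**Figure D4:**
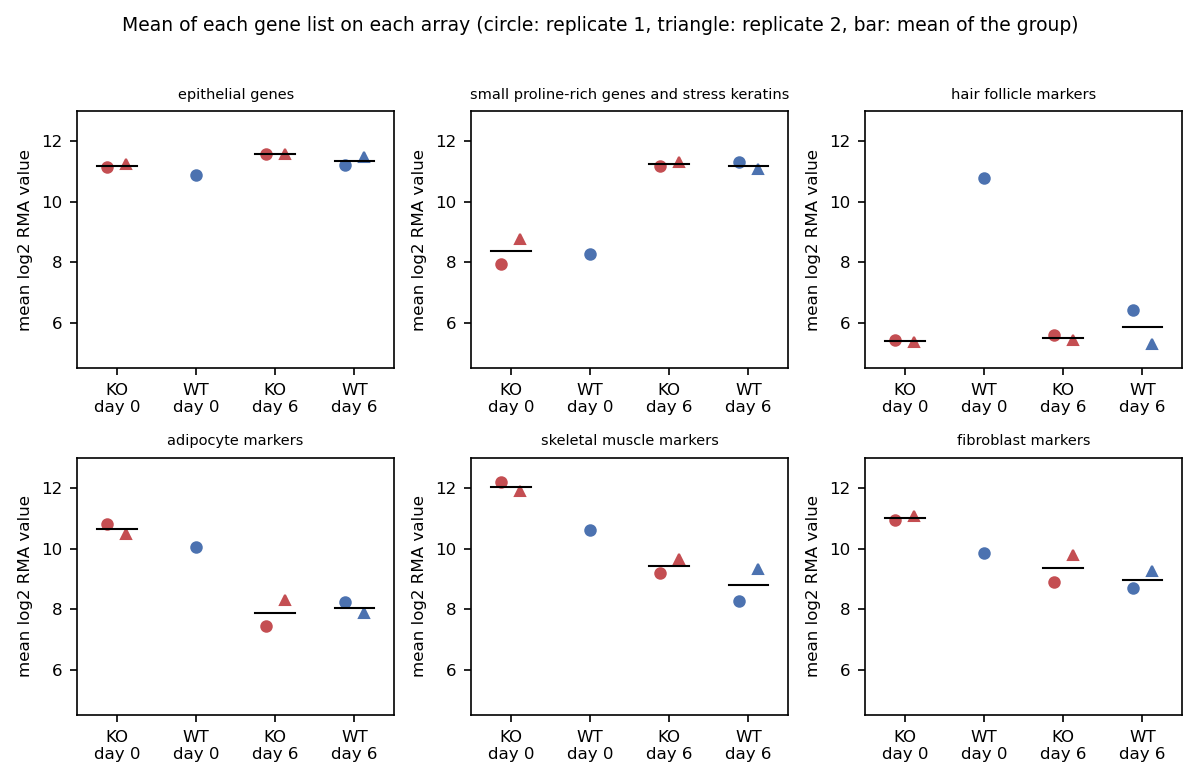
The mean log2 RMA value of 6 gene lists on each array, by genotype and day; bars are means of groups with 2 arrays. The epithelial mean stays within 10.90 to 11.59, the small proline-rich and stress keratin mean goes from 7.96 to 8.77 at day 0 to 11.10 to 11.33 at day 6, and hair follicle markers are high on the wild-type day 0 array alone, at 10.80.

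Genes of the epidermal layers in which these factors act were counted next, where 5.85% of all genes rose and 5.62% fell over both genotypes. Of 14 small proline-rich and stress keratin genes, made by stressed and cornifying keratinocytes, 11 rose over both genotypes and 0 fell, with a median difference of 3.31; Sprr2g (5.27 ± 0.18) and Sprr2d (5.92 ± 0.34, SE) were examples, and members of this family can share probes. Of 25 suprabasal and barrier genes 4 rose and 1 fell (median 0.32). Tgm1, the cross-linking enzyme that Grhl3 activates, rose by 0.95 ± 0.14 (SE), as did the desmosomal cadherin Dsg1b (1.55 ± 0.13) and the cornification protease Casp14 (1.99 ± 0.21, SE). Flg2, a filaggrin relative, fell by 3.67 ± 0.57 (SE) on the log2 scale. Of 15 basal keratinocyte genes 5 rose and 1 fell (median 0.74): the adhesion genes Fermt1 (1.74 ± 0.19), Lama3 (1.67 ± 0.22) and Cdh3 (1.70 ± 0.31, SE) rose and Krt15 fell 11.1-fold. The limma adjusted p of these named genes lay between 5.32e-05 (Sprr2g) and 0.0182 (Cdh3). In knockout alone the counts were 10 of 14, 6 of 25 and 4 of 15 risen, with 0, 1 and 2 fallen, where 7.24% of all genes rose and 9.07% fell.

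Relatives of the 9 factors and other epidermal factors were read against all genes, of which 5.85% rose and 5.62% fell over both genotypes. Of 30 measured members of the p53, Klf, Grhl, Ovol and Sox families, 5 rose and 0 fell over both genotypes (median 0.13). Grhl2, the grainyhead member that keeps epithelial character, rose by 1.37 ± 0.19, the p53 relative Trp73 by 1.05 ± 0.20, Klf7 by 1.42 ± 0.29 and Sox4 by 1.38 ± 0.32 (SE; limma adjusted p = 0.00839 to 0.0373). In knockout 3 of the 30 rose and 3 fell, shares near the 7.24% and 9.07% of all genes. Of 40 other epidermal transcription factors 10 rose and 4 fell (median 0.06, the same as over all genes). The epithelial Ets factor Elf3 rose 9.66-fold (3.27 ± 0.19), the homeobox factor Dlx5 3.96-fold (1.98 ± 0.18), the nuclear receptor Ppard 3.51-fold (1.81 ± 0.22) and the Ets factor Ehf 2.54-fold (1.35 ± 0.18, SE; limma adjusted p = 5.14e-04 to 0.00667).

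Of 20 chromatin and cofactor genes 2 rose and 1 fell over both genotypes, and of 15 genes of the Notch pathway, which takes part in keratinocyte commitment, 1 rose and 0 fell. These shares are near those of all genes (5.85% higher and 5.62% lower). Among them Ctbp2, a corepressor that works with Zfp750, rose by 0.72 ± 0.11, the Polycomb partner Jarid2 by 1.11 ± 0.21, and Smarcd3, a subunit of the SWI/SNF remodeller, fell by 2.12 ± 0.45 (SE; limma adjusted p = 0.0120 to 0.0299). Uhrf1 had 1.70 ± 0.49 (SE; limma adjusted p = 0.0731). The Notch gene that rose was the feedback inhibitor Nrarp (1.29 ± 0.15, SE; limma adjusted p = 0.00447). Notch3, Jag1 and Lfng had 0.73, 0.43 and -0.43 and did not pass.

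The genes whose course over the 7 arrays was most like each factor were named by Pearson's r among 4388 genes with an SD of 0.5 or more. These r values are descriptions over points that share their day, so any gene that differs by day can score high. For Sox15 they were Teddm3 (0.997) and Trex2 (0.996), a keratinocyte exonuclease, which rose by 4.43 and 2.00 between the days. For Zfp750 they were Snx22 (0.996) and Akr1d1 (0.995), for Ovol1 the DNA repair helicase gene Brip1 (0.996) and Hrob (0.992), and for Hopx Slco1a5 (0.993) and the DNA polymerase subunit gene Pold4 (0.990). For Grhl3 they were B3gnt3 (0.993) and Hgs (0.991), for Klf5 Fam160a1 (0.996) and Lrch1 (0.995), and for Klf4 Tnrc18 (0.984) and Zmiz1 (0.982). Trp63 had Hoxa7 (0.963) and Amigo3 (0.962). Grhl1 had no close companion by this measure, with Slc34a2 at 0.867 and the Notch effector gene Heyl at 0.835.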

How the data were processed

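The table the authors deposited holds log2 values, read as such from their range of 2.37 to 13.38. RMA and R 2.11.1 are named by the submitters' processing notes. RMA normalizes arrays by quantiles and compresses low values; further settings are not given in the sources used here. The number of arrays limits precision. Of 34760 probe sets, 21640 name 1 gene, 1321 several and 11799 none in the platform's table; the first gave 19937 genes, of which 19855 matched RefSeq genes of GRCm38.p6 by identifier.

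Groups came from the sample titles. Tests used limma 3.58.1 (R 4.3.3; lmFit, eBayes), two-sided, Benjamini-Hochberg adjusted over 19937 genes, threshold 0.05. An additive fit (residual df 4) gave day over both genotypes and genotype over both days; a fit of the 4 groups (residual df 3) gave the 5 other comparisons, where the lone wild-type array of day 0 takes its spread from the others. Intervals use limma's moderated variances. The procedure was tested on simulated data in which 200 of 19937 genes were changed 2-fold or 4-fold, with independent noise on each array. It recovered 2.10% of 2-fold changes in the interaction, 16.5% for day in wild type and 20.3% for genotype at day 0. In the remaining comparisons it recovered 46.7% to 87.5%. Of 4-fold changes it recovered 73.1% (interaction) to 99.8% (genotype over both days). Between 5.95% and 8.19% of the calls were false. These rates belong to that setting and need not hold for the arrays, where the share of changed genes is not known.

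The 9 factors and 17 other gene lists, some of which share genes (Krt5 and Krt14 stand in 2), were chosen with earlier results of these data known. Named are the 9 factors, Iqgap1, up to 4 genes per list by smallest p of the day change (lists of other cell types are given mostly by counts), and 2 genes per factor by Pearson's r, passing over predicted genes. Krt71, Xist and Eif2s3y were named after their values were seen. Alternatives were the probe sets used, a minimum mean of 5, array scaling, trend and robust variances, a replicate block, the arrays with Xist signal, the arrays in the fit and leaving out each array.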

Additional observations from a re-analysis of the deposited data

Results flagged for a closer look

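The day change differed between genotypes, by limma's interaction test, for genes of 9 of the lists, though for 0 of the 9 factors; 3.10% of all genes were called in this test. All of these differences use the single wild-type day 0 array. They covered 12 of 15 hair follicle markers and 4 of 7 melanocyte and Schwann cell markers (Tyr, Dct, Pmel and Mlana). In each case the difference in day change, knockout minus wild type, was positive. For Krt35 it was 6.37 ± 0.38 (SE), from a change of 0.26 in knockout and -6.11 in wild type. Of the epidermal factors 5 of 40 differed in day change between genotypes. Dlx3 changed by 0.60 in knockout and by -2.70 in wild type, Elf5 by 1.69 and -2.31, and Mycn by -0.16 and -1.94. Fosl1 changed by -0.92 and 1.01 and Satb1 by -3.22 and -0.42. Of 15 basal keratinocyte genes 4 did (Itga6, Itgb4, Col17a1 and Lamb3). All had positive estimates in wild type. In knockout those of Itga6, Itgb4 and Lamb3 were positive but smaller, and that of Col17a1 was -0.45. Of 25 suprabasal and barrier genes 3 did (Tgm3, Alox12b and Aloxe3). In 4 lists 1 gene did, Sox6 of the 30 relatives and Smarcd3 of 20 chromatin and cofactor genes among them. The others were Dll1 of 15 Notch pathway genes and Sprr2f of 14 small proline-rich genes and stress keratins. At 1 call each, these shares are near that of all genes.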

How the results depend on the processing

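Sox15 kept its rise and its call under all alternatives for the day change over both genotypes, in knockout and in wild type. Of 927 factor values under alternatives, 853 kept direction and call, 38 lost the call, 13 gained it and 23 turned sign. The 853 include values that were not called as reported and stayed uncalled, so they do not measure how firm the calls were. Over both genotypes Zfp750 and Hopx each stayed called in 11 of 15 settings. At day 0 Klf4 and Grhl3 each stayed called in 7 of 14.

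With trend and robust variances 5 factors were called over both genotypes. Without the arrays with Xist signal the day estimate over both genotypes was that of knockout, as it was without the wild-type day 0 array. At day 0, testing all probe sets left 1 factor called, a term for the arrays with Xist signal left 0 factors and 682 genes (2869 as reported), and only the arrays compared gave 4978 genes. At day 6 all probe sets, and trend and robust variances, each gave 1 gene.

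Leaving out 1 array gave 1 to 4 factors and 727 to 3251 genes for day over both genotypes, 1 to 4 and 1381 to 4027 in knockout (3251 as reported), 2 to 4 and 1040 to 2209 in wild type (1418), and 0 to 3 and 1239 to 4328 at day 0. It gave 0 factors for the day 6, both-day and interaction comparisons, with 0 to 43, 0 to 836 and 143 to 1038 genes (619). In wild type the 4 came without replicate 1 of day 6, when Klf5 and Zfp750 passed too; the 43 and 836 came without replicate 2 of wild type at day 6.

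No value that turned sign had been called. Without the arrays with Xist signal, day over both genotypes for Grhl1 was the knockout value of 0.23. Genotype over both days then set knockout at day 6 against wild-type replicate 2 of day 6 alone. It was -0.17 for Grhl3 and -0.54 for Sox15. With a term for those arrays genotype over both days was -0.01 for Grhl3, -0.05 for Zfp750 and -0.41 for Sox15. At day 6 Grhl3 was -0.17 without those arrays and with the term, both again against wild-type replicate 2 alone. Leaving out 1 array at a time, Grhl1 ranged from -0.29 to 0.23 for day; for genotype over both days Grhl1 ranged from -0.08 to 0.35, Zfp750 from -0.02 to 0.29 and Sox15 from -0.28 to 0.37; at day 6 Grhl3 ranged from -0.17 to 0.53 and Ovol1 from -0.29 to 0.25; and in the interaction Trp63 ranged from -0.15 to 0.07. The 0.23 of Grhl1 and the -0.28 of Sox15 came without the wild-type day 0 array. They equal the knockout and the day 6 estimates. At day 0 Zfp750 was 0.05 with array medians centred. That scaling moved the median of all genes there by 0.14, and in the interaction by -0.15.

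Same-numbered deviations correlated at 0.04, 0.09 and 0.23 between the groups with 2 arrays. The wild-type day 0 array has no other replicate, so pairing within wild type could not be checked. Whether replicate numbers pair the samples is thus not settled. With the replicate block, 4, 5, 2 and 2 factors were called for day over both genotypes, in knockout, in wild type and at day 0, and 0 otherwise; Grhl3 passed over both genotypes (1.19) and in knockout, and Klf4 was lost at day 0. The cause of these changes was not tested.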
